A study of Mus musculus with 8 samples.

Results

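The mitotic genes described here are 34 named genes of the G2 and M phases of the cell cycle, taken as a list of gene symbols and looked up among the 47729 gene identifiers of the deposited table, where all 34 were found. They were followed in EpCAM+ ductal cells of the mouse liver, the bile duct epithelium that can be grown as organoids. The donors were male C57/B6 mice, adult and with a healthy liver, and the cells were isolated by sorting on EpCAM, a surface adhesion protein. There were 8 libraries: 2 from freshly isolated cells, 2 after 12 h in Matrigel with organoid medium, 1 after 24 h, a single one whose title says 48h, and 2 from 6 days of culture, called organoids. That 48h title stands against a time point and a description of 24 h, so the library forms a group of its own and goes by its title. How many mice went into each library is not stated, so the p-values reflect differences among libraries that could be technical in origin.

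Cells enter mitosis when the kinase Cdk1, bound to a cyclin, becomes active; chromosomes then condense, attach through their kinetochores to the spindle and are pulled apart once the anaphase-promoting complex marks the B cyclins and other proteins for destruction. Most genes of this machinery are transcribed late in the cycle and are nearly silent in resting cells. Adult bile duct cells rarely divide in the healthy liver and can proliferate after injury or in culture. By role, the 34 genes comprised 8 of mitotic entry, 6 mitotic kinases, 2 partners of the chromosomal passenger complex, 5 of the spindle, 5 of the kinetochore and centromere, 4 of cytokinesis, 2 partners of the anaphase-promoting complex and 2 of chromosome structure.

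Promoters of late cell cycle genes are known for CCAAT boxes, bound by the factor NF-Y, and for the cell cycle homology region, or CHR, near the start, bound by the DREAM and B-Myb complexes. RefSeq promoter sequence (GRCm38.p6) was matched for 30 of the 34 genes, and not for Ccna2, Tpx2, Cdc25c and Aurkb. For each gene the first listed start was taken, which for some genes, such as Kif2c and Cdca8, lies inside the annotated gene. In the 250 bases before the start, the CCAAT box was searched as CCAAT and, for the other strand, as ATTGG. The CHR was searched as the letters TTTGAA, and on the other strand by the reverse complement of those letters. A CCAAT and an ATTGG share letters once, in Ube2c, and were counted as separate boxes. A CCAAT box was found in 23 of the 30 (76.67%), against 34.46% of 27025 genes with a promoter and 36.76% of 9369 that were also tested for expression. At least 2 boxes were found in 18 of the 30 (60%), against 10.54% of the 27025 genes and 13.88% of the tested ones. The CHR letters were in 10 of the 30 (33.33%), against 16.27% of the 27025 genes and 10.36% of the tested ones, and in the last 50 bases before the start in 5 (16.67%), against 2.668% and 1.42%. Both motifs stood together in 9 of the 30 (30%), against 5.732% and 4.077%, and neither in 6 (20%), against 54.99% and 56.95%. A match describes letters and is not a measured binding site.

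The last 150 bases before the start are shown for 8 genes, picked after their motifs were seen to cover the range from several boxes to none, with CCAAT boxes and CHR letters of either strand in capitals.
Cdk1 (chr10:69352913-69353062, minus strand): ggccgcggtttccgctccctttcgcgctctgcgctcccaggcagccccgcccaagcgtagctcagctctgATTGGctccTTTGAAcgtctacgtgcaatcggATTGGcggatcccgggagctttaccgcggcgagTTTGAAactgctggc
Ccnb2 (chr9:70421555-70421704, minus strand): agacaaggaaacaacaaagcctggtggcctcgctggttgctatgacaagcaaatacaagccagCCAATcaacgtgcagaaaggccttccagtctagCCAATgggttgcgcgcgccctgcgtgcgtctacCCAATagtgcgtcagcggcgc
Aurka (chr2:172370571-172370720, minus strand): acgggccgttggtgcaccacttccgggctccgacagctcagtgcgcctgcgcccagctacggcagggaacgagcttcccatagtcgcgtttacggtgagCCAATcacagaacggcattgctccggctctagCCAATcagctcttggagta
Hmmr (chr11:40733438-40733587, minus strand): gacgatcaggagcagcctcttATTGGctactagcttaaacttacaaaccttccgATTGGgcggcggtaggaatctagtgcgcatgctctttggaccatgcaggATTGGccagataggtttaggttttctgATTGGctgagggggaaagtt
Cenpf (chr1:189688087-189688236, minus strand): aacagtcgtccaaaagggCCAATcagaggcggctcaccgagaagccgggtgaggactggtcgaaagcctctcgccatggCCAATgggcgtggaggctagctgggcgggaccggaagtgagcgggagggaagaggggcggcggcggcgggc
Ndc80 (chr17:71526858-71527007, minus strand): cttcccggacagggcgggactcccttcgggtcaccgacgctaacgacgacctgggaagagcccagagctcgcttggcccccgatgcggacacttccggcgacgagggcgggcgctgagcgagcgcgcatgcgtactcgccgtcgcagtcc
Ect2 (chr3:27153879-27154028, minus strand): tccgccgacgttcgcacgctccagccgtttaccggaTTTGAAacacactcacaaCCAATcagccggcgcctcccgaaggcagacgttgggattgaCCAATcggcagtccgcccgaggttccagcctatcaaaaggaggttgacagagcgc
Cdc20 (chr4:118437344-118437493, minus strand): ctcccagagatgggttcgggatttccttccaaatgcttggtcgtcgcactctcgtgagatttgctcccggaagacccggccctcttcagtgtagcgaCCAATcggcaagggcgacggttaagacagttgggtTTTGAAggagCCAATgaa
In the letters shown, Ccnb2 has 3 boxes in evenly spaced positions, 87, 54 and 21 bases before the start, and Cdk1 has 2 boxes and 2 CHR matches, the nearer of these 15 bases before the start. Cdc20 has a CHR match 18 bases before the start between 2 boxes. Ndc80 holds neither motif in the window searched. Boxes that start 30 to 36 bases apart, a spacing chosen after the positions were seen, were in 8 of the 30 promoters (26.67%), against 1.791% of the 27025 genes and 3.095% of the tested ones.

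**Figure D1:**
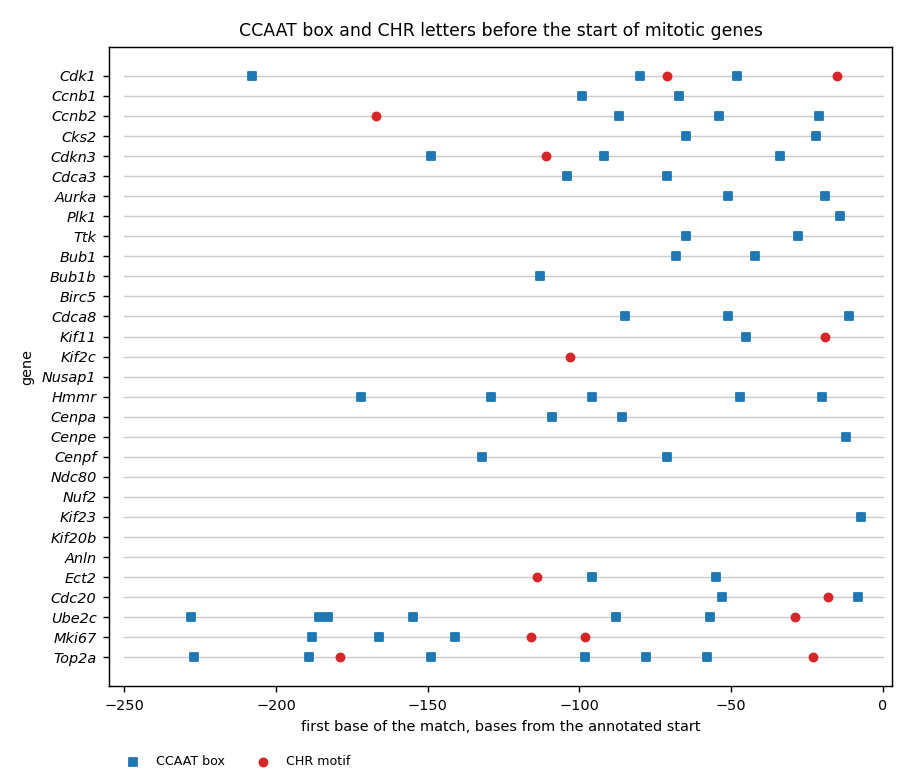
Positions of CCAAT boxes and CHR letters in the 250 bases before the start, 1 row for each of the 30 mitotic genes with a promoter sequence; the horizontal axis is the distance from the start in bases. Boxes lie in 23 rows and CHR letters in 10.

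The deposited values are RPKM, the authors' read counts scaled to gene length and library depth, with an effective depth of 13833130 to 28463383 reads a library. Genes at 1 RPKM or more numbered 8814 at 24 h and 10605 to 11263 in the other libraries. Of 8 ductal markers, 7 or 8 were at 1 RPKM or more in every library. Hepatocyte markers summed to 8.51 and 11.4 RPKM in organoids, 38.0 to 76.0 RPKM in the cultures before them, and 1011 and 966 RPKM in fresh cells. The 7 endothelial markers summed to at most 2.90 RPKM and the 8 mesenchymal and stellate markers to between 0.12 and 13.6 RPKM. The 9 immune markers summed to between 4.88 and 29.6 RPKM. Of these, Cd3e and Nkg7 were listed at 0 in every library and Ptprc, the pan-leukocyte marker, outside 1 fresh library. Other immune markers were present. Cd68, listed at 0 only at 24 h, was at 22.8 RPKM in the library titled 48h and 22.1 RPKM in the first organoid library. Csf1r was at 5.21 and 10.9 RPKM in fresh cells. Cd79a was at 4.40 RPKM at 24 h. The part of the hepatocyte transcripts in the differences from fresh cells was not tested. In these bulk libraries, more cells with a transcript and more transcript per cell cannot be told apart.

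The mitotic genes were low in the 5 libraries of fresh cells, 12 h and 24 h and high in organoids and in the library whose title says 48h. Their summed level was 16.4 and 31.2 RPKM in fresh cells, 33.9 and 29.7 RPKM at 12 h, 42.6 RPKM at 24 h, 1366 RPKM in the library titled 48h, and 580.5 and 999.7 RPKM in organoids. For 33 of the 34 genes the lowest of the 3 later libraries was above the highest of the 5 earlier ones, as for 7.26% of all genes tested, the exception being Kif23. Of the 34 genes, 27 passed the filter on low values (1 RPKM in 2 libraries) only through these later libraries, which favours that order, so the count is a description. The library titled 48h held the highest value for 27 genes, the second organoid library for 6 and the first for 1, Cenpa.

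**Figure D2:**
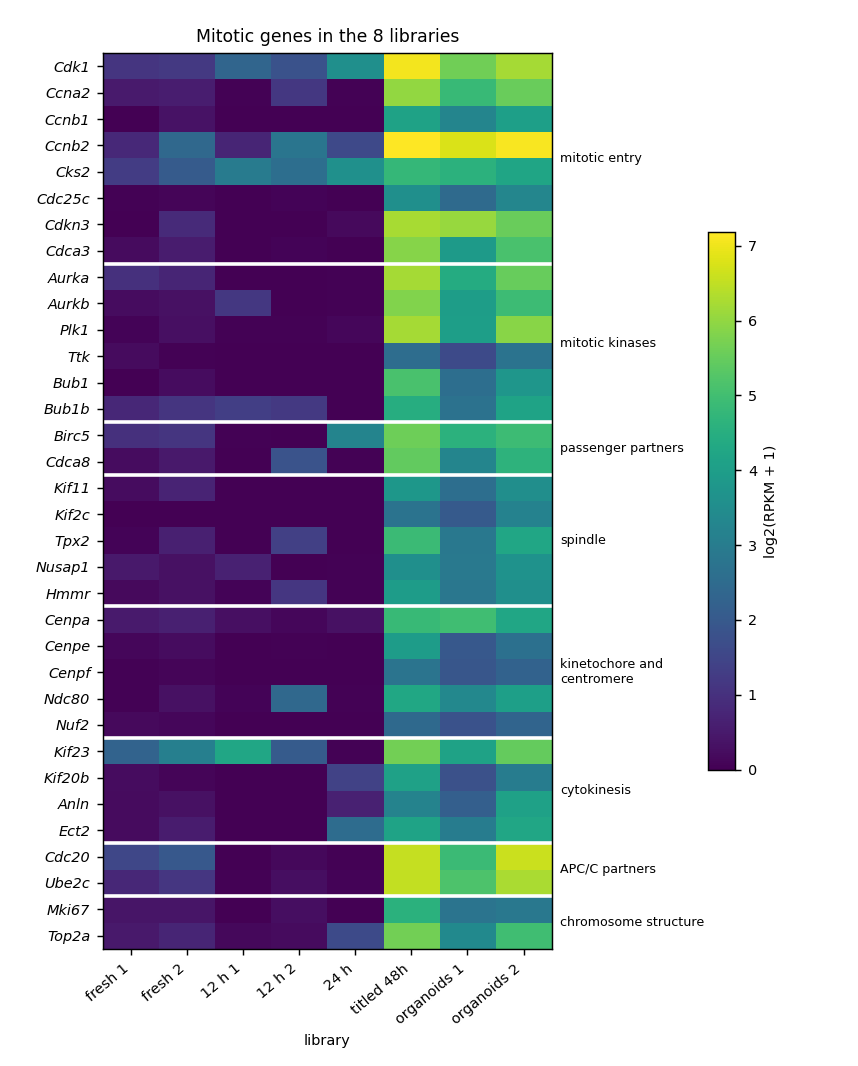
Level of each of the 34 mitotic genes (rows, by role) in each of the 8 libraries (columns, in order of time), as log2(RPKM + 1). The 3 later libraries are above the 5 earlier ones without overlap for 33 of 34 genes, as for 7.26% of all genes tested; 27 of the 34 passed the filter only through the later libraries.

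In organoids against fresh cells, 33 of the 34 genes rose in limma's linear model with Benjamini-Hochberg adjustment over all 12900 genes tested, of which 5.15% rose, and Kif23 did not pass (adjusted p = 0.148). Both organoid libraries were above both fresh ones for all 34, as they were for 38.1% of all genes tested. The median log2 change of RPKM + 1 was 3.23 for the mitotic genes and 0.17 for all genes. Since only 7 of the 34 genes passed the filter through earlier libraries as well, the count and the median describe the genes and support nothing. The count was 0 when either fresh library was left out. It was 12 without the first organoid library and 26 without the second.

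All 8 genes of mitotic entry rose in organoids against fresh cells, with a median log2 change of 4.39. Cdk1, the kinase that drives mitosis, was at 1.16 and 1.27 RPKM in fresh cells, 4.12 and 2.47 RPKM at 12 h, 11 RPKM at 24 h, 131 RPKM in the library titled 48h, and 48.2 and 73.1 RPKM in organoids. Its 12 h and 24 h values were above both fresh ones. It averaged 60.7 ± 17.7 RPKM in organoids and 1.22 ± 0.08 RPKM in fresh cells (SD, n = 2 each), a log2 change of 4.77 ± 0.42 (SE; adjusted p = 0.00619). Ccnb2, a B-type cyclin that activates Cdk1, was at 0.77 and 4.35 RPKM in fresh cells, 0.68 and 5.85 RPKM at 12 h, 1.99 RPKM at 24 h, 144 RPKM in the library titled 48h, and 109 and 137 RPKM in organoids. Its fresh and 12 h libraries spread widely at low levels, and its 3 later libraries lay close together. Ccna2, the A-type cyclin of S phase and mitosis, averaged 36.4 ± 12.4 RPKM in organoids and 0.46 ± 0.03 RPKM in fresh cells (SD, n = 2 each). Ccnb1, the other B-type cyclin, averaged 12.1 ± 4.8 RPKM in organoids and 0.14 ± 0.19 RPKM in fresh cells (SD, n = 2 each). Its value is uncertain, since processed pseudogenes such as Ccnb1-ps, 99.22% identical over 1287 bases, could take some of its reads. Cdkn3, a phosphatase that acts on Cdk1 and Cdk2, showed the largest change of the 34 genes in log2(RPKM + 1), 5.37 ± 0.50 (SE; adjusted p = 0.00664). As a ratio of mean RPKM its change was 136, below those of Plk1 (263) and Kif2c (691), which started from lower fresh levels. Cks2, a small subunit that binds Cdk1, had the smallest change of the group, 2.75 ± 0.46 on the log2 scale (SE), with levels of 23.5 and 17.7 RPKM in organoids and 1.42 and 3.20 RPKM in fresh cells. Cdc25c, a phosphatase that activates Cdk1, averaged 6.67 ± 3.0 RPKM in organoids and 0.05 ± 0.03 RPKM in fresh cells (SD, n = 2 each). Cdca3, which helps trigger the degradation of the mitosis inhibitor Wee1, averaged 23.8 ± 13.8 RPKM in organoids and 0.31 ± 0.21 RPKM in fresh cells (SD, n = 2 each).

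All 6 mitotic kinases rose in organoids against fresh cells, with a median log2 change of 3.58. Plk1, which acts in centrosome maturation and mitotic entry, was at 0.06 and 0.22 RPKM in fresh cells, 0.02 and 0.02 RPKM at 12 h, 0.09 RPKM at 24 h, 73.6 RPKM in the library titled 48h, and 15.4 and 59.0 RPKM in organoids. Its organoid libraries differed widely, and both lay above every earlier library (log2 change 4.78 ± 0.66, SE; adjusted p = 0.0135 in limma). The filter favours that order, since Plk1 passed it only through the later libraries. Aurka, the kinase of the spindle poles, was at 1.01 and 0.67 RPKM in fresh cells, 0.02 and 0 RPKM at 12 h, 0.02 RPKM at 24 h, 73.0 RPKM in the library titled 48h, and 20.3 and 44.5 RPKM in organoids. Its lowest values, in first-day culture, were 1 and 0 reads at 12 h and 1 read at 24 h, near the limit of detection. The change of Aurka at 12 h against fresh cells did not pass (adjusted p = 0.342 in limma). Aurkb, the kinase of the chromosomal passenger complex, averaged 22.1 ± 10.1 RPKM in organoids and 0.21 ± 0.04 RPKM in fresh cells (SD, n = 2 each). Bub1, a kinase of the spindle checkpoint, was at 0 and 0.17 RPKM in fresh cells, listed at 0 at 12 h and 24 h, at 33.8 RPKM in the library titled 48h, and at 5.08 and 12.8 RPKM in organoids. Bub1b, the checkpoint protein BubR1, averaged 11.3 ± 8.1 RPKM in organoids and 0.95 ± 0.30 RPKM in fresh cells, and Ttk, the checkpoint kinase Mps1, averaged 3.83 ± 2.52 RPKM in organoids and 0.09 ± 0.08 RPKM in fresh cells (SD, n = 2 each). These 2 kinases were the nearest of the 6 to the threshold (adjusted p = 0.0451 for Bub1b and 0.0384 for Ttk).

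Both partners of Aurkb in the passenger complex rose as well. Birc5, the subunit survivin, was at 0.98 and 1.14 RPKM in fresh cells, 0.03 and 0 RPKM at 12 h, 8.48 RPKM at 24 h, 46.9 RPKM in the library titled 48h, and 23.3 and 29.5 RPKM in organoids. It stood below fresh cells at 12 h and above them at 24 h. Cdca8, the subunit borealin, averaged 16.4 ± 11 RPKM in organoids and 0.29 ± 0.15 RPKM in fresh cells (SD, n = 2 each; adjusted p = 0.0345).

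All 5 spindle genes rose in organoids against fresh cells, with a median log2 change of 2.88. Kif11, the motor that pushes spindle poles apart, was at 0.19 and 0.63 RPKM in fresh cells, listed at 0 at 12 h, at 0.01 RPKM at 24 h, 12.9 RPKM in the library titled 48h, and 5.06 and 10.7 RPKM in organoids. Tpx2, which activates Aurka on the spindle, averaged 12.2 ± 8.4 RPKM in organoids and 0.31 ± 0.35 RPKM in fresh cells (SD, n = 2 each). Kif2c, a kinesin that takes microtubules apart, averaged 5.56 ± 3.48 RPKM in organoids and 0.01 ± 0.01 RPKM in fresh cells (SD, n = 2 each). The microtubule-binding Nusap1 and Hmmr changed by 2.88 ± 0.47 and 2.96 ± 0.53 on the log2 scale (SE).

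All 5 kinetochore and centromere genes rose, with the lowest median of the role groups on the log2(RPKM + 1) scale, a change of 2.12. That scale understates changes of low genes, so the rank is not read as a smaller rise. The ratio of mean RPKM, organoids over fresh cells, was 26.4 to 87.0 for these genes. For the cytokinesis genes it was 5.30 to 49.4. Cenpa, the histone H3 variant of centromeres, was at 0.43 and 0.55 RPKM in fresh cells, 0.24 and 0.09 RPKM at 12 h, 0.26 RPKM at 24 h, 27.7 RPKM in the library titled 48h, and 30.3 and 18.1 RPKM in organoids. It was the only one of the 34 genes with its highest value in the first organoid library. Cenpe, a kinetochore motor, was at 0.08 and 0.18 RPKM in fresh cells, 0.01 and 0.02 RPKM at 12 h, 0.01 RPKM at 24 h, 14.6 RPKM in the library titled 48h, and 2.91 and 5.22 RPKM in organoids. Cenpf averaged 3.32 ± 0.71 RPKM in organoids and 0.04 ± 0.03 RPKM in fresh cells (SD, n = 2 each). Ndc80 and Nuf2, partners in the complex that grips microtubules, changed by 3.52 ± 0.79 and 1.89 ± 0.35 on the log2 scale (SE). Ndc80 is uncertain, because the pseudogene 2700099C18Rik shares 303 bases at 95.05% identity and was itself at 6.76 RPKM in the library titled 48h.

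Of the 4 cytokinesis genes, Kif20b, Anln and Ect2 rose in organoids against fresh cells, and Kif23 did not pass. Kif23, a motor of the central spindle, was at 3.85 and 7.55 RPKM in fresh cells, 18.1 and 3.16 RPKM at 12 h, 0.03 RPKM at 24 h, 49.1 RPKM in the library titled 48h, and 16.4 and 44.0 RPKM in organoids. It was the highest of the 34 genes in fresh cells, and 1 of its 12 h libraries lay above the first organoid library. Ect2, which activates RhoA at the division plane, was at 0.15 and 0.47 RPKM in fresh cells, 0 and 0.01 RPKM at 12 h, 4.78 RPKM at 24 h, 17.1 RPKM in the library titled 48h, and 7.10 and 18.1 RPKM in organoids. Anln, a scaffold of the contractile ring, averaged 9.96 ± 9.09 RPKM in organoids and 0.20 ± 0.06 RPKM in fresh cells (SD, n = 2 each). Kif20b, a kinesin needed for the last step of division, averaged 4.74 ± 3.26 RPKM in organoids and 0.13 ± 0.08 RPKM in fresh cells (SD, n = 2 each).

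Both partners of the anaphase-promoting complex rose. Cdc20, its activator, was at 1.86 and 2.91 RPKM in fresh cells, 0 and 0.12 RPKM at 12 h, 0.03 RPKM at 24 h, 92.7 RPKM in the library titled 48h, and 28.8 and 96.7 RPKM in organoids. Ube2c, its ubiquitin-conjugating enzyme, averaged 55.9 ± 29.3 RPKM in organoids and 0.96 ± 0.32 RPKM in fresh cells (SD, n = 2 each; adjusted p = 0.00908). Whether reads were counted by strand is not stated, so genes that share exonic bases with a gene on the opposite strand are uncertain. Ccna2 shares 510 bases (12.49% of its length) with Exosc9, at 5.48 to 19.98 RPKM. Nusap1 shares 172 bases (4.237%) with Oip5, at 9.51 to 13.9 RPKM in the 3 later libraries and at most 0.48 RPKM in the earlier ones. Cdc20 shares 53 bases (2.837%) with Elovl1, at 26.6 to 159 RPKM. Cdc25c, Plk1, Cdca8 and Ube2c also share bases with a gene on the opposite strand, which was at most 6.07 RPKM in any library. Mki67, the proliferation marker Ki-67, was at 0.32 and 0.32 RPKM in fresh cells, 0 and 0.20 RPKM at 12 h, 0 RPKM at 24 h, 23.1 RPKM in the library titled 48h, and 5.76 and 6.26 RPKM in organoids. Top2a, the topoisomerase that untangles chromosomes, was at 0.40 and 0.67 RPKM in fresh cells, 0.12 and 0.16 RPKM at 12 h, 2.05 RPKM at 24 h, 49.1 RPKM in the library titled 48h, and 9.54 and 30.8 RPKM in organoids. Both rose in organoids, Mki67 by 2.41 ± 0.39 and Top2a by 3.58 ± 0.61 on the log2 scale (SE).

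Against the 12 h cultures, 24 of the 34 genes rose in organoids, where 1.38% of all genes did. The median log2 change was 3.10 for the mitotic genes and -0.09 for all genes. Only 7 of the 34 genes passed the filter through earlier libraries as well, so count and median are a description. This count was 13 without the second organoid library and 0 when any other replicate, fresh libraries included, was left out. In 12 h cultures against fresh cells, limma called 0 of the 34 genes, where 3.09% of all genes rose and 3.72% fell, and 3 of the 34 had an unadjusted p under 0.05, beside 27.1% of all genes. Of these 3, Cks2 had a log2 change of 1.12, Birc5 of -1.02 and Cdc20 of -1.66. The median log2 change was -0.14 for the mitotic genes and 0.24 for all genes. That of the mitotic genes was 0.17 after quantile normalization and -0.87 with a pseudocount of 0.1, so no direction is given.

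At 24 h, all 6 kinases, all 5 spindle genes, all 5 kinetochore genes and both anaphase-promoting complex partners were under 1 RPKM, with summed levels of 0.16, 0.09, 0.29 and 0.07 RPKM. The cytokinesis genes summed to 7.05 RPKM, of which Ect2 held 4.78, and the passenger partners to 8.50 RPKM, of which Birc5 held 8.48. Against fresh cells, 2 of the 34 genes rose, where 4.26% of all genes did: Cdk1 by 2.44 ± 0.52 and Birc5 by 2.20 ± 0.51 on the log2 scale (SE; adjusted p = 0.0361 and 0.0438). Both calls ended without either fresh library, and also with the summed RPKM made equal in every library, an alternative chosen after the data were seen. Ect2 (adjusted p = 0.0786) and Cks2 (adjusted p = 0.0695) did not pass. The 24 h library was above every fresh and 12 h library for 7 genes (Cdk1, Cks2, Birc5, Kif20b, Anln, Ect2 and Top2a), as was the case for 24.9% of all genes tested, and below both fresh libraries for 21, as were 47.4% of all genes tested. Of the 24 genes whose values gave whole reads, 17 had 3 reads or fewer at 24 h, so a lower level there was near the limit of detection. Ect2 had 494 reads and Birc5 554.

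The library titled 48h stood above the 24 h library for all 34 genes, as it was for 57.2% of all genes tested, with 18 of them past the threshold, where 1.83% of all genes rose. The median log2 change was 4.18 for the mitotic genes and 0.19 for all genes. By role, 5 of 6 kinases, 1 of 5 spindle genes, 3 of 5 kinetochore genes and 0 of 4 cytokinesis genes passed. Aurka was at 73.0 RPKM in the library titled 48h, against 0.02 RPKM at 24 h, a log2 change of 6.18 ± 0.73 (SE; adjusted p = 0.04). Ect2, at 17.1 RPKM in the library titled 48h, against 4.78 RPKM at 24 h, did not pass (adjusted p = 0.269). Against fresh cells, 28 of the 34 genes rose in the library titled 48h, where 1.84% of all genes did, and all 34 lay above both fresh libraries, as did 55.1% of all genes tested. Ttk, Bub1b, Kif2c, Ndc80, Kif23 and Anln did not pass. Median log2 changes from fresh cells were 5.17 for kinases, 3.31 for spindle, 3.78 for kinetochore and 3.38 for cytokinesis genes. Each is a single library, assumed in the model to vary like the replicated groups. As 27 of the 34 genes passed the filter only through the later libraries, the counts and medians against 24 h and fresh cells are a description. Both counts were 0 without either fresh library; the count against 24 h was also 0 without either organoid library and with equal summed RPKM, and 26 without either 12 h library.

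**Figure D3:**
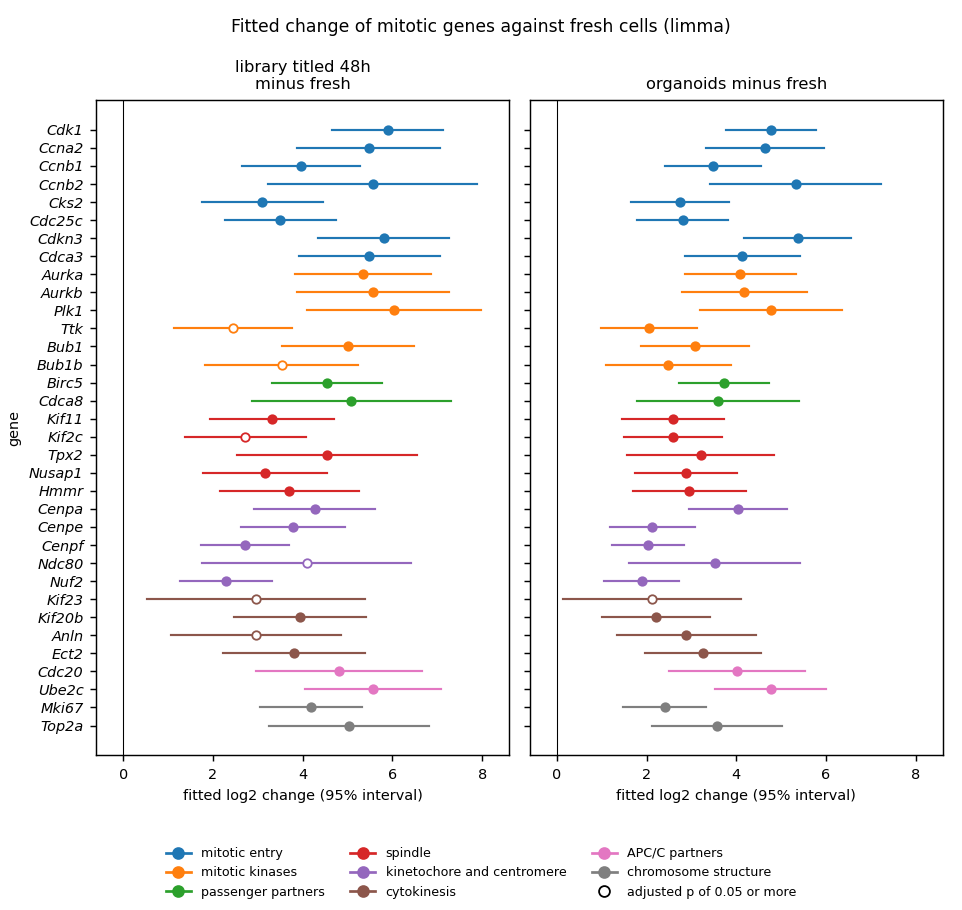
Fitted log2 change of RPKM + 1 (horizontal axis) with its 95% interval for each of the 34 mitotic genes, in the library titled 48h minus fresh cells (left) and organoids minus fresh cells (right), coloured by role; open points have an adjusted p of 0.05 or more. Open points are 6 on the left and 1, Kif23, on the right.

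On the log2(RPKM + 1) scale the organoid mean lay below the library titled 48h for all 34 genes, with a median log2 change of -0.80, beside -0.15 for all genes. In RPKM, Anln went the other way, at a mean of 9.96 in organoids and 8.33 in the library titled 48h (log2 change -0.07). No gene passed in limma (0 of 12900, or 0%; 958 had an unadjusted p under 0.05, 4 of them mitotic). Mki67 averaged 6.01 ± 0.36 RPKM in organoids (SD, n = 2) and was at 23.1 RPKM in the library titled 48h, a log2 difference of -1.78 with a 95% interval of -2.91 to -0.65 (adjusted p = 0.518). Bub1 averaged 8.92 ± 5.44 RPKM in organoids (SD, n = 2) and was at 33.8 RPKM in the library titled 48h, a log2 difference of -1.93 with an interval of -3.41 to -0.45 (adjusted p = 0.587).

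The 2 organoid libraries differed from each other. The second was higher than the first for 31 of the 34 genes, with a median log2 difference of 0.94, beside 0.38 for all genes, of which 68% were higher. By role the median difference was 1.15 for kinases, 0.95 for spindle, 0.50 for kinetochore and 1.30 for cytokinesis genes. The library titled 48h was above the first organoid library for 33 genes (median log2 difference 1.18), where 63.2% of all genes were higher (median 0.34). It was above the second for 28 genes (median log2 difference 0.44), where 49% of all genes were higher (median 0). For cytokinesis genes the median difference of the library titled 48h was 1.34 from the first organoid library and 0.04 from the second. Summed RPKM over all genes was 446034 in the first organoid library and 357129 to 369701 in the others, and the part of this in the differences between organoid libraries was not tested.

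**Figure D4:**
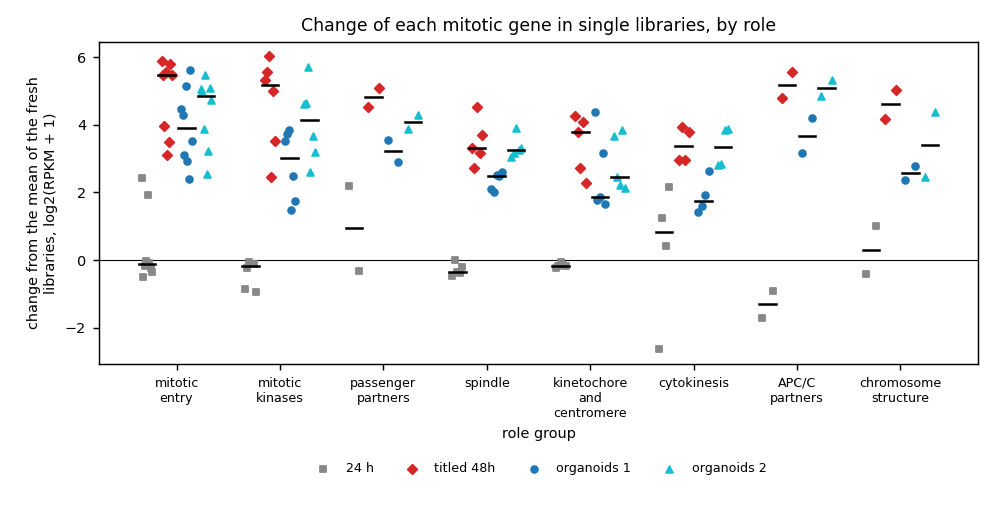
Change of each mitotic gene from the mean of the fresh libraries in log2(RPKM + 1) (vertical axis) by role group, with 1 point per gene for the 24 h library, the library titled 48h and each organoid library, and a black bar at the group's median. Median changes of kinases reach 5.17 in the library titled 48h, while the organoid libraries are at 3.01 and 4.15.

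**Figure D5:**
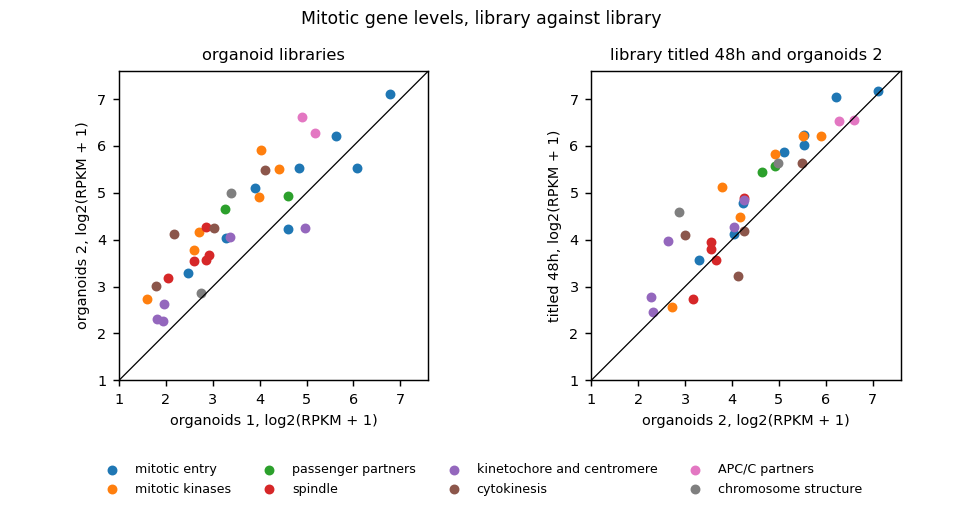
Log2(RPKM + 1) of the 34 mitotic genes, with 1 point per gene coloured by role and a line of equal levels: the second organoid library against the first (left) and the library titled 48h against the second organoid library (right). The second organoid library is above the first for 31 genes.

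Other genes of the pathway, from lists written with earlier results of these data known, were counted in the same way in organoids against fresh cells. Of those tested, 11 of 19 genes of entry and exit, 7 of 15 spindle, 14 of 35 kinetochore and checkpoint, 3 of 7 cytokinesis and 2 of 8 condensin genes rose, beside 5.15% of all genes, and 0 fell. Some of these genes passed the filter only through the later libraries, so these counts too are a description. Racgap1 and the spindle gene Ckap2, for example, were at most 0.57 and 0.66 RPKM in the earlier libraries. Among the genes that rose, Pbk, a mitotic kinase, averaged 61.6 ± 18.0 RPKM in organoids and 2.12 ± 0.06 RPKM in fresh cells (SD, n = 2 each). Spc25, a partner of Ndc80, averaged 24.3 ± 5.3 RPKM in organoids and 0.59 ± 0.07 RPKM in fresh cells (SD, n = 2 each). Racgap1, which works with Kif23 in the central spindle, averaged 12.1 ± 3.6 RPKM in organoids and 0.34 ± 0.32 RPKM in fresh cells (SD, n = 2 each). Of 13 subunits of the anaphase-promoting complex 1 rose, Anapc11, a share near that of all genes. Anapc11 had also risen at 12 h against fresh cells (log2 change 1.87; adjusted p = 0.0478), and its log2 change in organoids against 12 h was -0.05. Of 14 genes that control transcription of mitotic genes, 0 passed in limma. Foxm1, the activator of late cell cycle genes, averaged 6.09 ± 5.07 RPKM in organoids and 0.30 ± 0.24 RPKM in fresh cells (SD, n = 2 each; adjusted p = 0.0581), and Mybl2, or B-Myb, averaged 2.68 ± 2.01 RPKM in organoids and 0.11 ± 0.11 RPKM in fresh cells (SD, n = 2 each; adjusted p = 0.0907).

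At 24 h against fresh cells, 9 of 30 S phase genes rose, beside 2 of the 34 mitotic genes, and the difference between these counts was not tested. Of all genes tested, 4.26% rose and 6.66% fell at 24 h. The 24 h values come from a single library. Rrm2, a subunit of ribonucleotide reductase, was at 21.8 RPKM at 24 h, 0.02 and 2.16 RPKM at 12 h, and 0.85 and 1.80 RPKM in fresh cells. Rfc4, of the clamp loader of DNA replication, was at 39.6 RPKM at 24 h and at 3.63 and 3.98 RPKM in fresh cells. Its 12 h values, 5.66 and 19.98 RPKM, were already above both fresh ones. Of the other lists at 24 h, 3 of 19 genes of entry and exit rose and 1 fell, 1 of 15 spindle, 2 of 35 kinetochore and checkpoint, 0 of 7 cytokinesis, 1 of 8 condensin and 0 of 13 anaphase-promoting complex genes rose, and of 14 transcription genes 0 rose and 1 fell. The risers included the centromere gene Cenpm, at 10.0 RPKM, the spindle gene Psrc1, at 7.04 RPKM, and the condensin subunit Ncaph, at 12.0 RPKM. Cenpm had already risen at 12 h against fresh cells, at 7.55 and 3.91 RPKM (log2 change 2.47; adjusted p = 0.0361 in limma). In organoids against fresh cells, 7 of the 30 S phase genes rose, beside 5.15% of all genes.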

How the data were processed

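RNA was measured by Smart-seq2 with Nextera XT tagmentation in 8 libraries, per the labels' protocols. The authors deposited 1 RPKM value per gene and library; the build was GRCm38 and edgeR was used, per the submitters' processing notes. The aligner, counter, strandedness and any scaling factor are not given in the labels or notes. Symbols came from GENCODE M21 for 47224 of 47729 identifiers. Small values were whole multiples of the worth of 1 read, within 0.01, for 87.2% to 90.1%, which gave the effective depth; limits from it cover counting error only. Values were tested as log2(RPKM + 1), which understates changes of low genes, with limma 3.58.1 in R 4.3.3 over genes at 1 RPKM or more in at least 2 libraries, with 1 coefficient for each of 5 groups, 3 residual degrees of freedom, a variance trend, two-sided p-values and Benjamini-Hochberg adjustment over all 12900 genes at a threshold of 0.05. Near-identical transcripts were sought with blastn 2.17.0, at 95% identity over 300 bases. All 34 mitotic genes are named, with up to 2 genes of each other list by size of change among those that passed with a mean of at least 1 RPKM, and Foxm1 and Mybl2 whatever their result; the 24 h S phase, centromere, spindle and condensin examples were taken from these. The members and lists were chosen with earlier results of these data known. Alternatives were other pseudocounts, filters, scalings, sample sets, a replicate block and left-out libraries.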

Additional observations from a re-analysis of the deposited data

How the results depend on the processing

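Calls rest on few libraries. Leaving out each replicate in turn gave, for organoids against fresh cells, 0 to 1418 genes and 0 to 30 mitotic genes called and a mitotic median log2 change of 2.71 to 3.86; for organoids against 12 h, 0 to 321, 0 to 13 and 2.60 to 3.75; for 12 h against fresh cells, 0 to 1082, 0 to 0 and -0.18 to -0.04; for 24 h against fresh cells, 0 to 2313, 0 to 3 and -0.28 to -0.08; for the library titled 48h against fresh cells, 0 to 521, 0 to 29 and 4.10 to 4.21; for it against 24 h, 0 to 857, 0 to 26 and 4.18; and for organoids against it, 0, 0 and -1.18 to -0.44. Leaving out 1 replicate of a replicated group leaves 2 residual degrees of freedom.

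With a pseudocount of 0.1, the median was 4.98 for organoids against fresh cells, 5.73 against 12 h (418 genes), -0.87 at 12 h (2 mitotic genes), -0.87 at 24 h (2258 genes, 4 mitotic), 6.10 for the library titled 48h against fresh cells (114 genes, 7 mitotic) and 6.99 against 24 h (1052 genes); with 0.5 the medians were 3.9, 4.0, 4.84 for the library titled 48h against fresh cells and 5.13 against 24 h (467 genes). With no filter other than above 0, organoids against fresh cells gave 740 genes and 11 mitotic ones, against 12 h 0 and 0, 12 h against fresh cells 423 genes, 24 h 1 mitotic gene, the library titled 48h 930 and 15 against fresh cells and 840 and 11 against 24 h, and organoids against it 354 genes. With only genes whose mean was 5 RPKM or more, organoids against fresh cells gave 21 mitotic genes and a median of 3.87, against 12 h 151 genes, 15 mitotic and 3.93, and the library titled 48h medians of 5.02 against fresh cells and 5.27 against 24 h. Centring on the library median gave 478 genes for the library titled 48h against 24 h. Quantile normalization reversed the median at 12 h (0.17) and 24 h (0.84), and gave 722 genes for the library titled 48h against fresh cells and 0 genes, 0 mitotic and a median of 3.47 against 24 h; the cause was not tested. With only the groups compared, organoids against 12 h gave 0 and 0, 12 h 2 mitotic genes, 24 h 5466 genes and 9 mitotic, and the library titled 48h 3130 genes. With equal summed RPKM, chosen after seeing the data, organoids against 12 h gave 145 genes and 13 mitotic, 24 h 0 mitotic, and the library titled 48h 280 genes against fresh cells and 0 and 0 against 24 h. Leaving out the library titled 48h or the 24 h library, also chosen after seeing the data, left 33 mitotic genes called in organoids against fresh cells.

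Same-numbered libraries share only a number (correlations of deviations 0.19, 0.02 and 0.22, with 2 numbers). With a replicate block, 33 mitotic genes were called in organoids against fresh cells, 20 against 12 h and 0 at 12 h.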

Other observations

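At 12 h several mitotic genes differed widely between the 2 libraries. Ndc80 was at 0.04 and 4.41 RPKM, Cdca8 at 0.01 and 2.58 RPKM, Tpx2 at 0.01 and 1.58 RPKM, and Ccnb2 at 0.68 and 5.85 RPKM in the first and second 12 h libraries. Aurkb was at 1.25 and 0.02 RPKM and Kif23 at 18.1 and 3.16 RPKM, in the opposite direction. The second 12 h library was higher for 14 of the 34 genes (41.2%) and lower for 12, where 48.3% of all genes were higher, with a median log2 difference of 0 for both.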
